A study of Mus musculus with 6 samples.

Results

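Cytosolic ribosomal protein genes encode the protein parts of the ribosomes that translate nuclear messenger RNAs. Members were the protein-coding genes whose symbol is Rpl or Rps with a number, together with the stalk genes Rplp0, Rplp1 and Rplp2 and the gene Rpsa. The rule uses names alone and no measured value. It found 84 genes among 49315 in the count table, of which 31 belong to the small 40S subunit, 46 to the large 60S subunit and 7 are paralogs of such genes. Counts sufficed for a test of 83 of them, the exception being Rpl10l, which was at 0 in all libraries. The rule leaves out Rack1 and Fau, whose products are also ribosomal, and these are given separately.

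RNA was sequenced from mouse bone marrow in 2 groups of 3 libraries, and all 6 samples carried the HFSC diet label and were taken after hindlimb ischemia, in which a leg is deprived of its blood supply. The WT group had the floxed, undeleted miR-181a2b2 locus (miR-181a2b2 flox/flox, replicates 1, 3 and 4), and the KO group lacked it (miR-181a2b2-/-, replicates 2, 3 and 4). The sources used here give neither age nor sex, nor the cells in which the deletion was made. The extraction text names white adipose tissue where the source label names bone marrow, and neutrophil markers summed to between 47348 and 85397 CPM (counts scaled to a common library total) while adipocyte markers summed to between 43.4 and 77.5 CPM. Nothing in the labels says whether the libraries came from separate animals, so p-values measure the spread between these samples, which may be technical.

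A ribosome is built from ribosomal RNA and one copy of nearly every ribosomal protein, and cells coordinate the supply of these proteins. Ribosomal protein messenger RNAs are short and abundant and begin with a C followed by a run of pyrimidines, the 5′ terminal oligopyrimidine or TOP motif. The TOP motif places their translation under the mTOR kinase and the RNA-binding protein LARP1. Blood formation is sensitive to this supply: loss of 1 copy of RPS19 and of several other members causes Diamond-Blackfan anaemia in people, and loss of RPS14 contributes to the anaemia of the 5q- syndrome.

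The start regions of some members are shown because members varied together across libraries, as described further on, and the TOP motif lies there. RefSeq windows (GRCm38.p6) were matched for 64 of the 84 members. Each line runs 5′ to 3′ on the gene's strand over 60 bases, 40 before the annotated start and 20 from it on. Capitals mark the longest run of pyrimidines that begins with C within 10 bases of the start.
Rpl38 (chr11:114668540-114668599, plus strand): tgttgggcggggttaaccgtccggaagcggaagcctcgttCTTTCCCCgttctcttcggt
Rps15a (chr7:118116128-118116187, minus strand): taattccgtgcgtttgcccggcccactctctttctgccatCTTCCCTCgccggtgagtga
Rps6 (chr4:86857348-86857407, minus strand): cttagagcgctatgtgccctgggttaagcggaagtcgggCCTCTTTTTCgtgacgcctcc
Rps9 (chr7:3704001-3704060, plus strand): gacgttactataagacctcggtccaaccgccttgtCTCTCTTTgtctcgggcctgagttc
Rpl35a (chr16:33056442-33056501, plus strand): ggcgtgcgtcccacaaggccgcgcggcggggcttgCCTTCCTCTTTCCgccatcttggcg
Rplp0 (chr5:115559427-115559486, plus strand): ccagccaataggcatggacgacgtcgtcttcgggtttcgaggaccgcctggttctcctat
Rpl3l (chr17:24727786-24727845, plus strand): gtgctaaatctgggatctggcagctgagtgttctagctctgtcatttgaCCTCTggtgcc

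In Rpl38 and Rps15a the run begins at the annotated start itself, and in Rps6, Rps9 and Rpl35a a few bases before it. For Rpl35a this holds for the start at 33056482 only. Its windows at annotated starts 33056453 and 33056514, not shown, held no such run. The Rplp0 window holds no such run near its annotated start. Among 76 windows of members, 13 (17.1%) had a C and at least 4 pyrimidines exactly at the start, against 2.51% of all 32851 windows. The runs in capitals needed a C and at least 4 pyrimidines. Such a run began within 10 bases of the start in 53.95% of member windows and in 30.72% of all windows. A C followed by at least 7 pyrimidines began within 10 bases of the start in 31.6% of member windows and in 8.11% of all windows.

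Other motifs were searched on both strands over the 300 bases from 250 before to 50 after the start. The ETS family box CCGGAAG was in 35.5% of member windows against 8.86% of all windows, and the YY1 site AAGATGGC in 10.5% against 2.75%. The GC box GGGCGG, bound by Sp factors, was in 60.5% against 35.7%, whereas the TATA box TATAAA was in 9.21% against 13.6%. A match describes letters in a window and shows no binding, and some members have several windows.

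The deleted locus encodes miR-181a and miR-181b, microRNAs that lower messenger RNAs carrying matching 3′ UTR sites, so their sequences are shown with the sites of the members. The rows of Mir181a-2 and Mir181b-2 were at 0 in all 6 libraries. Poly(A) selection retains few short RNAs, so these counts check neither the genotype nor how much of either mature microRNA remained in KO. Both mature forms carry the same seed (bases 2 to 8, in capitals).
mmu-miR-181a-5p (chr2:38852741-38852763, plus strand): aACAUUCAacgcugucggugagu
mmu-miR-181b-5p (chr2:38853845-38853868, plus strand): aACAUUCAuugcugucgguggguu

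A seed match of 7 or 8 letters lay in the annotated 3′ UTR of 5 of 84 members (5.95%), against 19.85% of 20851 protein-coding genes. Member 3′ UTRs were short, with a median of 87.5 bases against 868 over all these genes, and 49 members had under 100 bases. The 5 members with a match had long annotated 3′ UTRs, from 875 bases in Rpsa to 3167 in Rps20. A single annotated transcript per gene was searched. The isoforms present were not determined, so the messenger RNAs in these libraries may lack the sites. The matching letters are in capitals in the sites of these members, and Rpl5 alone has the A after the seed match that makes an 8mer.
Rpl5: gccagacaTGAATGTAcataggaa
Rpl21: acatggtgTGAATGTgggtacgc
Rpl22: tatttgaaTGAATGTtgatcact
Rps20: gactacatTGAATGTcccttagt
Rpsa: gctgccccTGAATGTcctggaat

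The 5 members with a site did not pass the test. Their log2 fold changes, KO minus WT, were 0.26 for Rpl5, 0.25 for Rpl21, 0.34 for Rpl22, 0.33 for Rps20 and 0.26 for Rpsa. The median over the 83 members tested was 0.29, so the members with a site lay within the range of those without.

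Members took between 3.21% and 4.43% of all counts. The share was 3.93%, 3.21% and 3.55% in WT replicates 1, 3 and 4 and 4.16%, 3.70% and 4.43% in KO replicates 2, 3 and 4. KO replicate 4 was the highest and WT replicate 3 the lowest, and the groups overlapped because WT replicate 1 stood above KO replicate 3. The mean share was 3.56% ± 0.363 (SD, n = 3) in WT and 4.09% ± 0.368 (SD, n = 3) in KO, a ratio of 1.15. An exact two-sided permutation test over libraries gave p = 0.2 (0.267 adjusted over 8 quantities), and 0.1 is the smallest p that 3 libraries against 3 can give. A difference between the groups in this share was thus not shown. In bulk RNA, fewer cells of a type and less RNA per cell cannot be told apart.

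**Figure D1:**
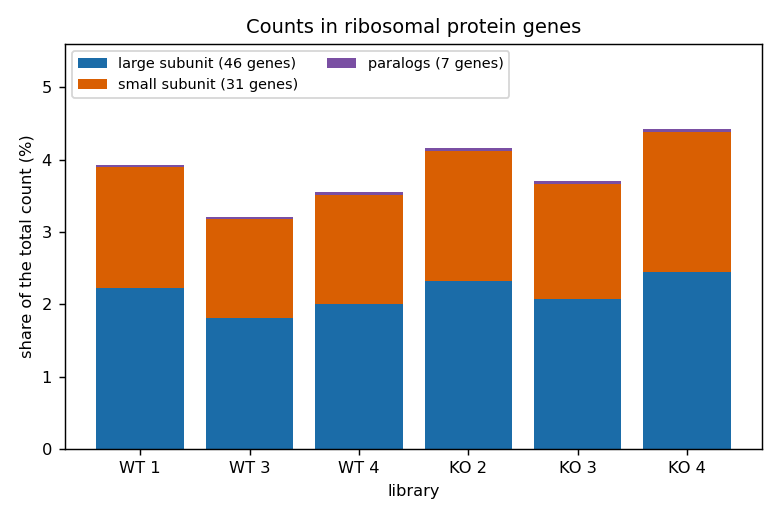
Share of the total count (percent, vertical axis) in each of the 6 libraries, stacked for the large subunit, the small subunit and the paralogs. The total ran from 3.21% in WT replicate 3 to 4.43% in KO replicate 4, and WT replicate 1 stood above KO replicate 3.

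Total counts ranged from 33861440 to 40359093 per library, so that 3 counts, the upper limit that a count of 0 allows, correspond to 0.0715 to 0.0890 CPM. That limit covers counting error only. The lowest count of a core member (a member that is no paralog) in any library was 2703, so counting error was small beside the spread between libraries. Over all genes the test passed 417 of 16956. Leaving out KO replicate 4 gave 32, and leaving out WT replicate 1, 3 or 4 gave 33, 199 or 37. Leaving out KO replicate 3 gave 920. Xist was above 1 CPM in WT replicates 3 and 4 and KO replicate 2 and below it in the others. Both groups thus held libraries of either kind, but in unequal numbers, so Xist level and group were partly confounded.

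No member passed the test of KO against WT (edgeR quasi-likelihood test, Benjamini-Hochberg adjusted p under 0.05), where 0.938% of all genes tested passed as higher and 1.52% as lower. The lowest adjusted p values were 0.0889 for Rps9, 0.0903 for Rpl35a and 0.0939 for Rps27a. Yet 82 of 83 members had a positive log2 fold change, against 48.9% of all genes, the exception being Rpl3l. At an unadjusted p under 0.05, 50 of 83 members were higher and 0 lower, against 11.7% of all genes higher. The median log2 fold change over the members was 0.29 (quartiles 0.25 and 0.34), beside −0.01 over all genes (quartiles −0.25 and 0.20), and lay at percentile 83.5 of single genes. Members share the same 6 libraries, so their common direction is not repeated evidence.

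That count of 50 depended on single libraries. Leaving out KO replicate 4 gave 5, and leaving out KO replicate 2 gave 25. Leaving out WT replicate 1, 3 or 4 gave 75, 6 or 7. It was 19 with scaling to library totals alone and 20 with Xist as a covariate. The median log2 fold change stayed between 0.21 and 0.38 over the 6 fits that each left out 1 library. Other tools called some members: DESeq2 passed 12 of 81 as higher (6.59% of all genes with an adjusted p) and limma 3 of 83 (2.92% of all genes), the latter being Rps9, Rps27a and Rpl35a. Each call by either tool was of a higher level in KO.

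**Figure D2:**
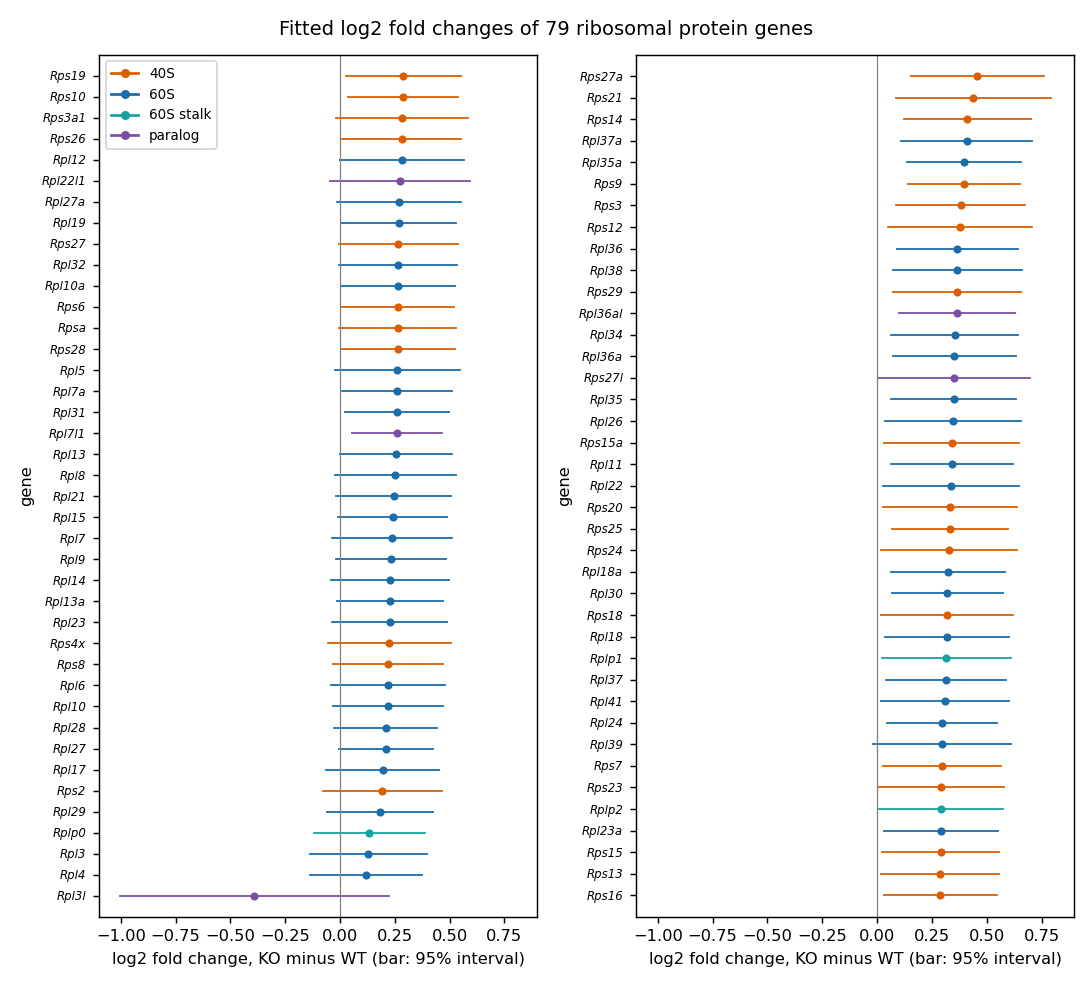
Fitted log2 fold change, KO minus WT (horizontal axis), with its 95% interval for 79 members, coloured by subunit and sorted by value across both panels. Values lay between 0.12 (Rpl4) and 0.46 (Rps27a) for all members drawn except Rpl3l at −0.39, and 66 of 77 core members lay between 0.2 and 0.4. The bars of single genes are wider than the differences among most genes.

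The members varied together from library to library. Leaving out the scarce Rpl3l and Rpl39l, WT replicate 3 was the lowest library for 80 of 81 members and KO replicate 4 the highest for 78, with KO replicate 2 the highest for the other 3. Relative to the mean of each gene over the 6 libraries, the median member stood at 0.02, −0.28 and −0.16 on the log2 scale in WT replicates 1, 3 and 4. In KO replicates 2, 3 and 4 it stood at 0.14, −0.02 and 0.31. WT replicate 1 and KO replicate 3 were thus both near the middle. Only 17 of 83 members were higher in every KO library than in every WT library, a share of 20.5% against 14.4% of all genes, and the other 66 overlapped.

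**Figure D3:**
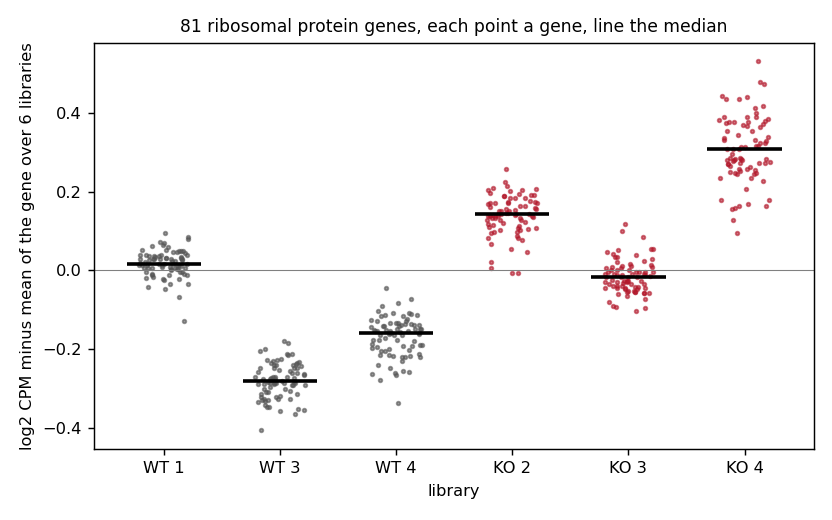
Log2 CPM of each of 81 members minus the mean of that gene over the 6 libraries (vertical axis), by library, with the median as a line. Medians ran from −0.28 in WT replicate 3 to 0.31 in KO replicate 4, and those of WT replicate 1 (0.02) and KO replicate 3 (−0.02) lay close together.

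Markers of marrow cell types also differed between these libraries. Neutrophil markers summed to 47348, 60004 and 49227 CPM in WT and 75986, 70253 and 85397 CPM in KO, and 3 of 12 passed as higher (S100a8, Elane and Camp). Erythroid markers summed to 33966, 14935 and 25180 CPM in WT and 25115, 14251 and 17096 CPM in KO, and 2 of 10 passed as lower (Sptb and Ermap). Among monocyte markers 1 of 7 passed as higher (Ly6c2), while Cx3cr1 was lower without overlap (−0.71 ± 0.27 SE, adjusted p = 0.173), and the list's median was −0.03 with 3 of 7 positive. Among plasma cell markers 1 of 4 passed as higher (Xbp1). None of the 9 B cell precursor, 6 mature B cell, 8 T and NK cell, 5 megakaryocyte and 6 progenitor markers passed in edgeR. Before adjustment 4 of the mature B cell and 2 of the progenitor markers were lower and 1 T and NK cell marker was higher at p under 0.05. DESeq2 passed 11 neutrophil markers as higher and limma 8. DESeq2 passed 4 mature B cell markers and Cx3cr1 as lower and Jchain as higher, and limma none of these. Both tools passed Nkg7 of the T and NK cell list as higher and Gata2 of the progenitor list and Slc4a1 of the erythroid list as lower. WT replicate 3, with the lowest ribosomal protein share, had the highest neutrophil sum of the WT group, whereas KO replicate 4 was the highest of all libraries in both. Erythroid sums followed the order of the ribosomal protein share within WT. Within KO, replicate 3 was the lowest in both, but replicate 2 had the highest erythroid sum and replicate 4 the highest share. The part of cell composition in the ribosomal protein values was not tested.

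Per length the highest members were Rplp1, a protein of the stalk that recruits elongation factors, at 1272 CPM per kb of transcript, Rps12 at 1217 and Rps24 at 1130. Over both groups the lowest tested members were the paralogs Rpl39l (0.449 CPM per kb), Rpl3l (0.805) and Rpl7l1 (33.8). The lowest core member was Rps15a at 73.2 CPM per kb, 17.4 times below Rplp1, but its annotated main transcript has a 3′ UTR of 4728 bases and the isoform present was not determined. The level of Rps9 was also close to 1130 CPM per kb.

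The small subunit binds messenger RNA and decodes it. Its 31 genes had a median log2 fold change of 0.29 (highest 0.46), and 24 had an unadjusted p under 0.05. None passed after adjustment. Over all genes tested 11.7% were higher at the unadjusted cut, and the members' count at that cut depended on single libraries, as given above. Rps14 lies in the platform of the 40S subunit and stood at 495, 390 and 428 CPM in WT and 586, 505 and 655 CPM in KO. The groups did not overlap, with a log2 fold change of 0.41 ± 0.13 (SE; 95% interval 0.12 to 0.70; adjusted p = 0.106). Rps9, with 767, 710 and 723 CPM in WT and 943, 859 and 1089 CPM in KO, likewise had every KO library above every WT library (0.39 ± 0.11 SE, adjusted p = 0.0889). Rps27a encodes a fusion of ubiquitin with a ribosomal protein and had the largest fold change of the small subunit, 0.46 ± 0.14 (SE, adjusted p = 0.0939). Its levels were 453, 378 and 392 CPM in WT and 540, 479 and 661 CPM in KO. Rps9 and Rps27a were chosen after their values were seen.

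Genes of the small subunit that are mutated in Diamond-Blackfan anaemia lay within the range of the other members. Rps19 stood at 374, 303 and 332 CPM in WT and 408, 369 and 454 CPM in KO, where WT replicate 1 was above KO replicate 3 (log2 fold change 0.29 ± 0.12 SE, adjusted p = 0.175). Rps24 stood at 584, 475 and 502 CPM in WT and 657, 543 and 758 CPM in KO and overlapped in the same way (0.33 ± 0.14 SE, adjusted p = 0.19). Rps7 had 598, 469 and 509 CPM in WT and 641, 591 and 703 CPM in KO (0.30 ± 0.12 SE). Rps10 had 338, 280 and 306 CPM in WT and 389, 336 and 403 CPM in KO (0.29 ± 0.11 SE). Rps26 had 402, 326 and 349 CPM in WT and 434, 387 and 488 CPM in KO (0.28 ± 0.12 SE), and in these 3 genes WT replicate 1 was above KO replicate 3. In none of these genes did the difference pass the test.

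Rps12, the most abundant of the small subunit per length, had 706, 547 and 602 CPM in WT and 784, 677 and 949 CPM in KO (0.38 ± 0.15 SE, adjusted p = 0.158). Rpsa, a 40S protein that also occurs as a laminin receptor, had 1065, 872 and 942 CPM in WT and 1145, 1045 and 1267 CPM in KO. The fitted difference of 0.26 ± 0.12 on the log2 scale (SE, adjusted p = 0.216) did not pass, and the groups overlapped between WT replicate 1 and KO replicate 3. Rps4x, on the X chromosome, had 866, 694 and 756 CPM in WT and 889, 809 and 1009 CPM in KO (0.23 ± 0.12 SE, adjusted p = 0.301).

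The large subunit holds the peptidyl transferase centre. Its 43 genes outside the stalk had a median log2 fold change of 0.26 (range 0.12 to 0.41). Of these, 21 had an unadjusted p under 0.05, where 11.7% of all genes were higher at that cut. Rpl35a, another Diamond-Blackfan gene, stood at 323, 267 and 277 CPM in WT and 377, 343 and 422 CPM in KO. The groups did not overlap, and the log2 fold change was 0.40 ± 0.12 (SE; 95% interval 0.14 to 0.66; adjusted p = 0.0903).

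Rpl5 and Rpl11 form, with 5S ribosomal RNA, the particle that binds the p53 regulator MDM2 when ribosome assembly fails. Rpl11 had 428, 342 and 391 CPM in WT and 466, 445 and 559 CPM in KO, with no overlap (0.34 ± 0.12 SE, adjusted p = 0.142). Rpl5 had 623, 493 and 539 CPM in WT and 650, 587 and 748 CPM in KO, with WT replicate 1 above KO replicate 3 (0.26 ± 0.13 SE, adjusted p = 0.245). Neither passed the test.

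Rpl4 and Rpl3, the proteins with the longest coding sequences of the core members, had the smallest changes of the large subunit. Rpl3 had 886, 709 and 811 CPM in WT and 848, 816 and 965 CPM in KO, so that WT replicate 1 was above 2 of the KO libraries (0.13 ± 0.12 SE; 95% interval −0.14 to 0.39; adjusted p = 0.548). Rpl10, an X-linked gene whose protein joins the subunit late in its assembly, had 670, 566 and 612 CPM in WT and 704, 658 and 787 CPM in KO (0.22 ± 0.11 SE, adjusted p = 0.267). The X-linked Rpl36a and Rpl39 had log2 fold changes of 0.35 and 0.30, so the 4 X-linked members lay within the range of the others.

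The stalk proteins recruit the elongation factors to the 60S subunit. Rplp0, its base, had the highest CPM of all members, 1313, 1090 and 1190 in WT and 1320, 1218 and 1401 in KO (0.13 ± 0.11 SE, adjusted p = 0.508). Rplp1 had 634, 494 and 569 CPM in WT and 690, 620 and 801 CPM in KO (0.32 ± 0.13 SE, adjusted p = 0.183). Rplp2 had 396, 329 and 358 CPM in WT and 458, 374 and 495 CPM in KO (0.29 ± 0.13 SE, adjusted p = 0.198). In all 3 genes WT replicate 1 stood above KO replicate 3.

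Paralogs differed more in their level than in their fold change. Rpl10l, which is expressed in the testis, had 0 counts in each library and allows at most 0.0890 CPM, while its parent Rpl10 was above 560 CPM throughout. Rpl39l, also known from the testis, had 9, 16 and 7 counts in WT and 9, 12 and 28 counts in KO, too few to place its fold change (0.72 ± 0.51 SE; 95% interval −0.41 to 1.86). Its parent Rpl39 had 241, 188 and 211 CPM in WT and 259, 220 and 307 CPM in KO.

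Rpl3l, which takes the place of Rpl3 in skeletal muscle and heart, had 0.954, 1.33 and 1.48 CPM in WT and 1.16, 0.894 and 0.827 CPM in KO. The fitted difference on the log2 scale was −0.39 ± 0.27 (SE; 95% interval −1.0 to 0.22; adjusted p = 0.415), and the groups overlapped. Skeletal muscle markers summed to 17.2, 11.4 and 17.3 CPM in WT and 13.8, 9.22 and 8.78 CPM in KO, and 1 of the 4 tested passed as lower (Tnnt3). Within WT the order differed: Rpl3l was lowest in replicate 1 and the muscle sum was lowest in replicate 3. Within KO both fell from replicate 2 over replicate 3 to replicate 4, and WT replicate 4 was the highest of all libraries in both. The other 2 of the 6 muscle markers did not reach the minimum count for a test. The part of muscle RNA in the Rpl3l values was not tested.

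The other paralogs lay within the range of the core genes. Rpl36al had 133, 108 and 110 CPM in WT and 138, 142 and 172 CPM in KO, with no overlap (0.36 ± 0.12 SE, adjusted p = 0.113). Its parent Rpl36a had 214, 170 and 185 CPM in WT and 240, 211 and 276 CPM in KO (0.35 ± 0.13 SE, adjusted p = 0.135). Rpl7l1, a homologue of Rpl7 that acts in ribosome assembly, had 87.0, 74.8 and 78.7 CPM in WT and 90.4, 95 and 102 CPM in KO. These groups did not overlap either, with a log2 fold change of 0.26 ± 0.09 (SE, adjusted p = 0.13) beside 0.24 ± 0.12 (SE) for Rpl7. Rpl7 itself overlapped, with 670, 567 and 587 CPM in WT and 696, 636 and 816 CPM in KO.

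Rps27l, a target gene of p53, had 71.3, 56.1 and 53.4 CPM in WT and 67.0, 69.9 and 93.4 CPM in KO (0.35 ± 0.15 SE, adjusted p = 0.203). Its parent Rps27 had 321, 274 and 286 CPM in WT and 383, 298 and 377 CPM in KO (0.27 ± 0.12 SE, adjusted p = 0.218). Rpl22l1 had 84.9, 67.9 and 74.9 CPM in WT and 83.2, 79.6 and 112 CPM in KO (0.27 ± 0.14 SE). Its parent Rpl22, needed for T cell development, had 266, 211 and 214 CPM in WT and 279, 251 and 343 CPM in KO (0.34 ± 0.14 SE). All 4 genes overlapped between groups. Rpl26, whose product binds the p53 messenger RNA, had 398, 317 and 325 CPM in WT and 427, 377 and 516 CPM in KO (0.35 ± 0.14 SE, adjusted p = 0.17), with WT replicate 1 above KO replicate 3.

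Ribosomal protein genes have many processed pseudogenes with near-identical sequence, and the sources used here do not say how reads matching several places were counted. Levels of members are therefore uncertain where reads could be split. Of 280 pseudogene rows named after members, 206 had a count, and together they took 0.0086% of counts in WT and 0.0101% in KO. Another 6 rows with a fitting symbol were annotated as pseudogenes and were not counted as members, the largest being Rps4l with 1919 counts over the 6 libraries.

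Both subunits were compared as sums. The small subunit took 1.51% ± 0.156 (SD, n = 3) of counts in WT and 1.77% ± 0.174 (SD, n = 3) in KO. The large subunit took 2.01% ± 0.203 (SD, n = 3) in WT and 2.28% ± 0.191 (SD, n = 3) in KO. The exact permutation test gave p = 0.2 for each (0.267 adjusted over 8 quantities). The ratio of large to small subunit counts varied less between WT libraries than either sum, at 1.328, 1.334 and 1.336, and was 1.291, 1.303 and 1.264 in KO. Every KO library was below every WT library, which in this design gives p = 0.1 in the exact permutation test, the smallest possible (0.267 adjusted over 8 quantities). Without Rpl3, Rpl4 and Rplp0, chosen after their values were seen, the ratio was 1.119, 1.123 and 1.123 in WT and 1.105, 1.108 and 1.085 in KO, again without overlap but with a smaller gap.

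Within the members most relative fold changes were small. With libraries scaled to the summed counts of the members, an alternative added after seeing the data, the log2 fold change of 70 of 83 members was within 0.1 of 0. In that edgeR fit no member passed and 0 had an unadjusted p under 0.05. The fit could not detect changes of this size. Rps19 had an SE of 0.13 there, although it took 0.967%, 0.961% and 0.972% of member counts in WT and 0.975%, 0.982% and 0.972% in KO. On that scale 12 members were higher and 10 lower without overlap, 26.5% of the members against 31.4% of all genes. The scaling itself moved the median log2 fold change of all genes to −0.28, so the 31.4% is no neutral background for the members. Those lower were Rpl3, Rpl4, Rpl6, Rpl8, Rpl14, Rpl15, Rpl23, Rpl29, Rplp0 and Rps4x. Those higher included Rpl35, Rpl35a, Rpl36a, Rpl37a, Rps3, Rps9, Rps14, Rps19, Rps21, Rps25 and Rps27a.

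Fold changes of the 77 core genes went with coding length. Across these genes, which share the same libraries and are not independent replicates, Pearson's r between the log2 of coding length and the log2 fold change was −0.51 and Spearman's rho −0.57 (lengths enter all these r values on the log2 scale). The 26 shortest (78 to 408 bases) had a median log2 fold change of 0.33, the next 25 (408 to 567 bases) 0.29, and the 26 longest (579 to 1260 bases) 0.25. Whole transcript length gave r = −0.23 and the summed exon length of all isoforms r = −0.02. Leaving out each library in turn gave r between −0.43 and −0.53. Coding length and the deviation of a library went together positively in the 3 WT libraries (r of 0.34, 0.39 and 0.44) and in KO replicate 3 (0.18), and negatively in KO replicates 2 (−0.51) and 4 (−0.42).

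Removal of each library's trend over all genes on transcript length and GC content, added after seeing the data, changed this picture. Pearson's r with coding length became −0.13 and Spearman's rho −0.26, and the median log2 fold change of the members became 0.09, with 76 of 83 still positive and 7 at an unadjusted p under 0.05. With the trend on exon length and GC content removed, the median was 0.15 and 78 of 83 were positive. The members' shift was thus smaller once each library's trend on length and GC content was taken out. The source of these trends was not tested.

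**Figure D4:**
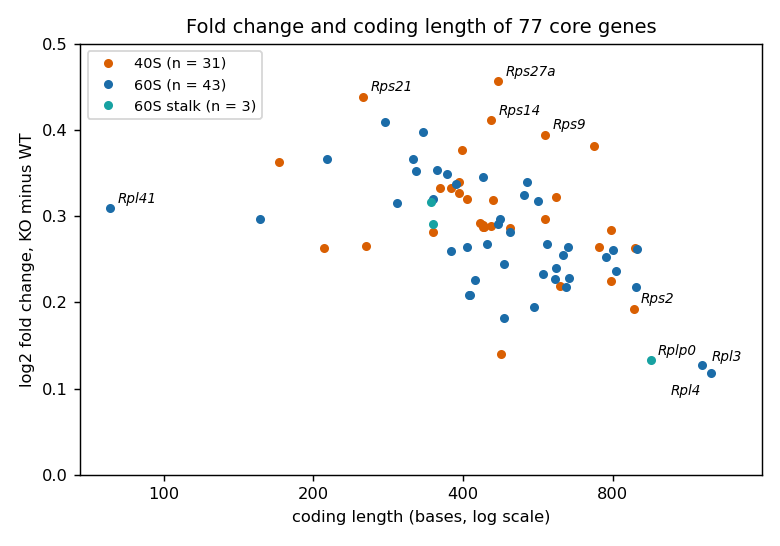
Log2 fold change, KO minus WT (vertical axis), against coding length in bases (horizontal log axis) for 77 core genes, coloured by subunit. The longest, Rpl3, Rpl4 and Rplp0, lie between 0.12 and 0.13, and Rps27a is the highest at 0.46.

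Ribosomal proteins outside the naming rule gave similar values. Fau, which encodes a fusion with the 40S protein eS30, had a log2 fold change of 0.33 ± 0.11 (SE, adjusted p = 0.112), and Rack1, a scaffold on the 40S head, had 0.20 ± 0.12 (SE). Neither passed in edgeR, and DESeq2 passed Fau. The 78 mitochondrial ribosomal protein genes, which serve the separate ribosome of that organelle, had a median of 0.21, with 72 positive. Of these 78 genes, 25 were higher at an unadjusted p under 0.05, against 11.7% of all genes. None passed in edgeR, where Mrpl33 was nearest (0.47 ± 0.10 SE, adjusted p = 0.0504), and DESeq2 and limma each passed Mrpl33 alone.

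Other lists related to ribosomes and translation had smaller medians. Of 16 elongation factors and other messenger RNAs with a TOP motif, 0 passed, 0 had an unadjusted p under 0.05 in the edgeR test, and the median was 0.11. Eef1b2 was at 0.27 ± 0.13 (SE), Eef1a1 at 0.09 ± 0.11 (SE) and Eef2 at −0.10 ± 0.11 (SE). Of 28 ribosome biogenesis genes 0 passed, 0 had an unadjusted p under 0.05 in edgeR, and the median was −0.06 with 8 positive. Fbl, which methylates ribosomal RNA, was at 0.04 ± 0.11 (SE), and Ncl, the nucleolar protein nucleolin, at −0.15 ± 0.12 (SE). The 8 chaperones and importers of ribosomal proteins had a median of −0.06, with 0 past the edgeR threshold and 2 lower at an unadjusted p under 0.05. DESeq2 and limma likewise passed 0 genes of these 3 lists.

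Among 11 regulators of TOP messenger RNA translation, 1 passed. Tsc1, part of the complex that restrains mTOR, fell from 48.7 ± 3.0 CPM (SD, n = 3) in WT to 32.6 ± 3.9 CPM (SD, n = 3) in KO. The fitted change on the log2 scale was −0.58 ± 0.10 (SE, adjusted p = 0.0318 in edgeR), and every KO library was below every WT library. The call was lost without any WT library (−0.63, −0.55 and −0.57 without WT replicates 1, 3 and 4), without KO replicate 4 (−0.51) and with Xist as a covariate (−0.57). Mtor was at −0.39 ± 0.11 (SE, adjusted p = 0.0903), Eif4ebp1, a translation repressor that mTOR inactivates, at 0.38 ± 0.10 (SE, adjusted p = 0.0738) and Larp1 at −0.05 ± 0.12 (SE). DESeq2 also passed Mtor and Eif4ebp1, and limma Eif4ebp1. The median of this list was −0.05.

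**Figure D5:**
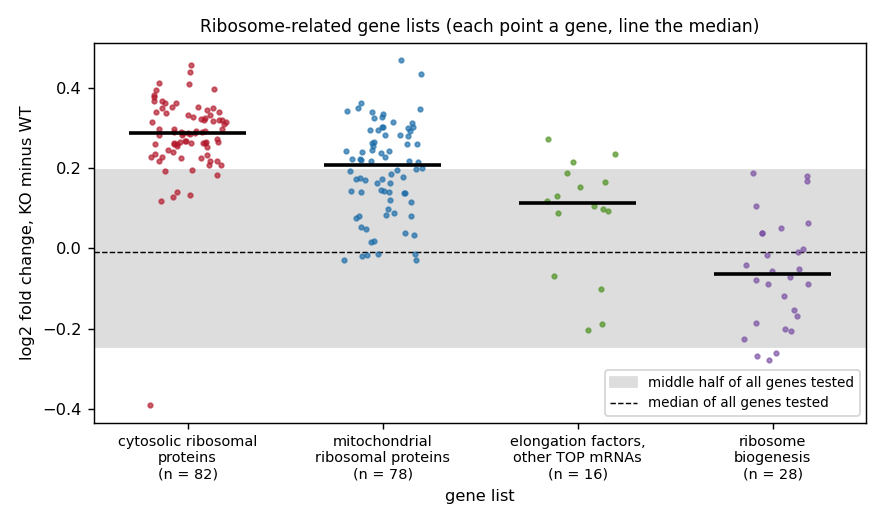
Log2 fold change, KO minus WT (vertical axis), of each gene in 4 lists, with the median as a line, over a grey band between the quartiles of all genes tested (−0.25 and 0.20). Cytosolic ribosomal proteins (Rpl39l not drawn) and mitochondrial ribosomal proteins have medians of 0.29 and 0.21, and ribosome biogenesis genes −0.06.

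The genes whose levels over the 6 libraries were most like the summed ribosomal protein level were sought among 5863 genes whose log2 CPM averaged 5 or more. Pearson's r over 6 libraries was 0.997 for Ptma, 0.996 for AI662270, 0.994 for Gins4, 0.994 for Jpt1 and 0.992 for Eif3k. They were the highest of many candidates, so the values describe these libraries only. Ptma, which encodes the abundant small nuclear protein prothymosin alpha, had 1465, 1278 and 1354 CPM in WT and 1513, 1428 and 1643 CPM in KO, with WT replicate 1 above KO replicate 3 as in most members. Eif3k, a subunit of the initiation factor that binds the 40S subunit, had 108, 92.6 and 98.4 CPM in WT and 123, 108 and 134 CPM in KO.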

How the data were processed

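Poly(A) RNA of 6 mouse bone marrow libraries (3 WT, 3 KO) was analysed. The authors deposited raw read counts per gene. The tools named, per the submitters' processing notes, are STAR 2.5.2b, Trimmomatic 0.36 and, from Subread 1.5.2, featureCounts; the build named is GRCm38. Their settings, strandedness, the handling of multi-mapping reads and the annotation release were not given in the sources used here. Symbols, coordinates and lengths came from GENCODE M21, which named 49056 identifiers; the other 259 held 0.0171% of counts.

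Counts were tested with edgeR 4.0.16 (R 4.3.3): TMM scaling (factors 0.948 to 1.04), filterByExpr, robust quasi-likelihood fit over 16956 genes, two-sided, Benjamini-Hochberg threshold 0.05. CPM uses the library total times the TMM factor. Alternatives were DESeq2 1.42.0, limma 3.58.1 with voom and sample quality weights, other scalings and filters, a replicate block, an Xist covariate, trends on length and GC content, and each library left out. The procedure was tested on simulated data with larger fold changes than most members showed and with each gene drawn independently. That test does not show how well changes like those of the members are detected.

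Members and lists were chosen with earlier results of these data known. Values in every library are given for the 3 highest and 3 lowest members per length, the stalk, Rpsa, X-linked members, paralogs with their parents (and Rpl26), and Diamond-Blackfan and 5q- genes; members named otherwise were chosen after their values were seen. Each pair of libraries differed by more than sampling noise. A few genes are not reported here.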

Additional observations from a re-analysis of the deposited data

How the results depend on the processing

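The count of ribosomal protein genes higher in KO, 0 in edgeR, became 8 of 83 without a filter on low counts. In that fit 2.15% of all genes tested were higher. The count became 12 of 81 with DESeq2 (6.59% of all genes) and 3 of 83 with limma (2.92%). With each library left out it lay between 0 and 1 (Rps27a without KO replicate 3, where 1.81% of all genes were higher). No alternative called a member lower. All genes past the threshold, 417 in edgeR, became 1492 without the filter, 1641 with DESeq2, 1057 with limma, 209 with the Xist covariate, and between 32 and 920 with each library left out. The share of these that were higher was 38.1%, against 17.8% with library totals, 52.2% with DESeq2 and 46.8% with limma; scaling by library totals moved the median of all genes to −0.08 and that of the members to 0.22. The members' median log2 fold change became 0.0127 when scaled to ribosomal protein counts, which moved the median of all genes to −0.28, and 0.0857 with the trend on transcript length and GC content removed. Both alternatives were chosen after seeing the data; the first removes the common shift by construction, and for the second the cause was not tested. The difference in share of counts lay between 0.355 and 0.731 percentage points with each library left out. Over 30 named genes and their alternatives no value that passed the test was involved in a change of sign; 9 values came to pass and 13 that did not pass changed sign. With 3 libraries a group, a difference below the spread between libraries could go undetected at any depth.

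The replicate number as a block called 2 of 83 members as higher (Rps21 and Rpl36al), where 1.25% of all genes were higher. The members' median log2 fold change was then 0.36. Only numbers 3 and 4 occur in both groups, and deviations of same-numbered libraries correlated at 0.20 and −0.13. Pairs with unlike numbers lay between −0.20 and 0.14. So few pairs cannot show whether the number marks more than a label.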
